A study of Mus musculus with 12 samples.

Results

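The collagen genes are those of the protein-coding genes whose symbol is Col, a collagen type number, the letter a and a chain number. By that rule 44 of the 33906 gene identifiers in the expression tables were collagen genes, lying on 15 chromosomes. The samples were lumbar spinal cords of 12 mice, 3 in each of 4 groups, whose poly(A) RNA was sequenced. H1, H2 and H4 were healthy wild-type mice (group H). The remaining mice belonged to a model of amyotrophic lateral sclerosis (ALS), a disease in which motor neurons degenerate. Of these, P66, P67 and P74 were fed PBS, a saline buffer (group P). Group C, mice C79, C84 and C85, was treated with manganese-doped carbon dots, a nanozyme with activity like that of superoxide dismutase. Mice E75, E77 and E90 (group E) were taken to be those given edaravone, a radical scavenger used against ALS. The series text describes edaravone under another letter, so this reading rests on elimination. The sources used here do not give the strain or transgene of the model, nor age, sex or dose, and wild-type mice given either agent were not analysed here.

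Collagens are extracellular proteins built from 3 chains wound into a triple helix. Fibrillar collagens (types I, II, III, V, XI, XXIV and XXVII) form the fibres of connective tissue, type IV forms the mesh of basement membranes around vessels and under the pia, type VI forms beaded filaments, and fibril-associated collagens sit on fibre surfaces. Multiplexins (types XV and XVIII) lie in basement membrane zones and transmembrane collagens at cell surfaces. In the healthy cord most fibrillar collagen is found in the meninges, around vessels and in nerve roots, while the neural tissue itself holds little of it.

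Recovered reads came to between 16.76 and 19.81 M per library, and 18118 genes had enough reads to be tested. Of the 44 collagen genes 42 were tested. Col10a1, a chain of growth-plate cartilage, and Col17a1, a chain of skin hemidesmosomes, had at most 2 and 6 reads in any library and were not tested. Markers of neurons were present in every library, with a summed level of 623 to 1529 FPKM, and motor neuron markers summed to 35.1 to 158 FPKM. FPKM corrects a gene's reads for its exon length and for the depth of the library. That length was the union of a gene's annotated exons, whichever transcripts were expressed, so levels of different genes compare only roughly. Library H1 stood apart in skeletal muscle markers, whose summed level was 2428 FPKM there. It was 222 FPKM in H2, 184 FPKM in P74 and 2.53 to 46.5 FPKM in the remaining libraries. Without H1 the counts of collagen genes that passed against H, given below as 7, 6 and 17 in P, C and E, were 5, 4 and 16. Without H2 they were 3, 3 and 13, and without P74 the count in P was 8. In bulk tissue, fewer cells of a type and less RNA per cell cannot be told apart.

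The promoter windows of 4 genes that the results turn on are shown here because they stand for the sets described below. Among the comparisons with H, Col3a1, Col1a2 and Col28a1 passed the test in group E alone, and Col5a3 passed in every ALS group. The sequences are from RefSeq, build GRCm38.p6, 5′ to 3′ on the gene's strand, and end just before the RefSeq start site, except that of Col1a2, which is the longest stretch of its window free of annotated exon. Capitals mark a CCAAT box (CCAAT), a GC box (GGGCGG) or a TATA box (TATAAA), searched on both strands.

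Col3a1, chr1:45311288-45311537, plus strand: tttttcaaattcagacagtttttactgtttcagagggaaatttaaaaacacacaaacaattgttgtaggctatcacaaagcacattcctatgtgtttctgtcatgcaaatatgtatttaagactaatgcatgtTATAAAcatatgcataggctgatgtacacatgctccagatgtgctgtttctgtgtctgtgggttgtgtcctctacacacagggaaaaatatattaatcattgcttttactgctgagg
Col1a2, chr6:4505370-4505492, plus strand: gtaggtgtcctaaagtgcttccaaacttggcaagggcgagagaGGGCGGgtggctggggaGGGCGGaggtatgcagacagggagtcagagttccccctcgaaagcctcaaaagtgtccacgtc
Col28a1, chr6:8192618-8192867, minus strand: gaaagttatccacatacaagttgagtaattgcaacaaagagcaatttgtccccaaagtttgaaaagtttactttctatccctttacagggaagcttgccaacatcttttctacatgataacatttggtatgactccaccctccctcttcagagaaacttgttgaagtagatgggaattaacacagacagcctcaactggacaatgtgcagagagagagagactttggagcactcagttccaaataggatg
Col5a3, chr9:20815068-20815317, minus strand: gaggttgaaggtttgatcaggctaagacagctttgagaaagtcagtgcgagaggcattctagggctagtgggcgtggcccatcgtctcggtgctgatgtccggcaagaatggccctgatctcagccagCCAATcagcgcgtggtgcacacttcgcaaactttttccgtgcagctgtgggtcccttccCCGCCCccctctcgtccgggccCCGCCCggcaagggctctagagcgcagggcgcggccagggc

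A window of 250 bases was held for 35 of the 44 collagen genes. A GC box was found in 21 of these 35 windows (60%), against 32.7% of all RefSeq windows of that length. That background was not restricted here to protein-coding or tested genes. A CCAAT box was found in 13 (37.1%, against 33.8%) and a TATA box in 5 (14.3%, against 12.4%). Of the 10 genes with a window that passed in E alone, 5 held a GC box, 3 a CCAAT box and 1 a TATA box. These counts cover the whole window of 250 bases. Col1a2 is among the genes with a CCAAT box, which is not within the stretch printed above. All 3 genes with a window that passed in P, C and E (Col5a3, Col23a1 and Col27a1) held a GC box. These are matches of letters, with no measurement of binding.

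Collagen RNA as a whole was higher in the ALS groups. The summed level over all collagen genes was 102 ± 15.9 FPKM in H (SD, n = 3; 84.1 to 114), 138 ± 21.5 in P (113 to 151), 152 ± 18.1 in C (139 to 173) and 193 ± 40.7 in E (149 to 229). The H range lay below those of C and E and met that of P at its edge. Fibrillar chains gave 36.6 ± 6.35 FPKM in H, 52.1 ± 9.42 in P, 57.8 ± 8.06 in C and 81.4 ± 21.2 in E. Their share of all collagen FPKM was 34.9 to 36.9% in H and 40.1 to 44.3% in E, without overlap. The type IV chains summed to 20.1 ± 3.61 FPKM in H and 20.1 ± 1.01 in P, and their share was 17.9 to 21.8% in H and 13.2 to 17% in P. The multiplexins summed to 3.46 ± 0.586 FPKM in H and 11.6 ± 4.3 in E, with P (5.17 ± 1.11) and C (4.68 ± 0.735) between.

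**Figure D1:**
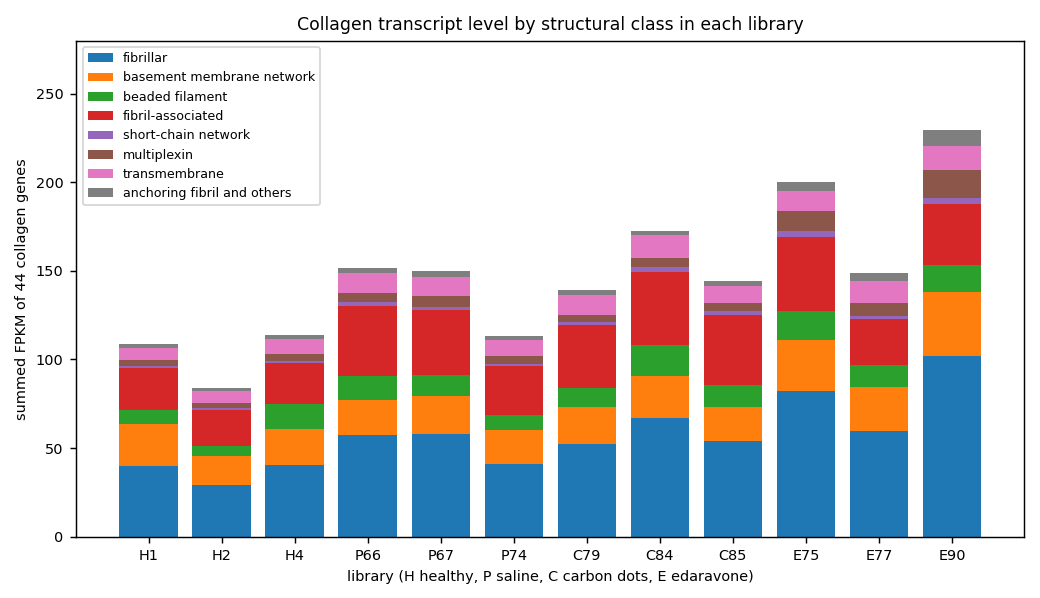
Summed FPKM of the collagen genes in each of the 12 libraries, by collagen class. The total is lowest in H2 (84.1 FPKM) among all libraries and reaches 229 FPKM in group E.

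Each gene was tested with limma on log2(FPKM + 1), with Benjamini-Hochberg adjustment over all 18118 genes and a threshold of 0.05 for the adjusted p. Fold changes below are log2 values on that scale ± standard error, with n = 3 mice a group, and understate the change of low genes. In P against H, 7 of the 42 collagen genes rose and 0 fell. That is 16.7% higher, near the 12.2% of all tested genes that rose (15.5% passed in either direction and 3.26% fell). In C against H, 6 rose and 0 fell, or 14.3% higher, where 7.25% of all genes rose, 1.06% fell and 8.31% passed in either direction. In E against H, 17 rose and 0 fell, or 40.5% higher, where 11.1% of all genes rose, 2.15% fell and 13.2% passed in either direction. The groups did not overlap, with the ALS mice higher or lower, for 13 and 1 of the 42 genes in P (26.4 and 8.88% of all genes), 15 and 1 in C (22.7 and 8.63%) and 23 and 0 in E (24.9 and 7.93%). These comparisons share the 3 healthy libraries. The median collagen change was 0.23 in P, 0.25 in C and 0.42 in E, beside 0.07, 0.07 and 0.08 over all genes. Median-ratio scaling left 5, 6 and 14 genes, all higher, while over all genes it moved the share of calls that were higher from 78.9 to 53.2% in P, from 87.2 to 67% in C and from 83.7 to 58.4% in E. Leaving out H2, P66 or P67 left 3 genes in P, and leaving out H2, C84 or C85 left 3 in C.

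**Figure D2:**
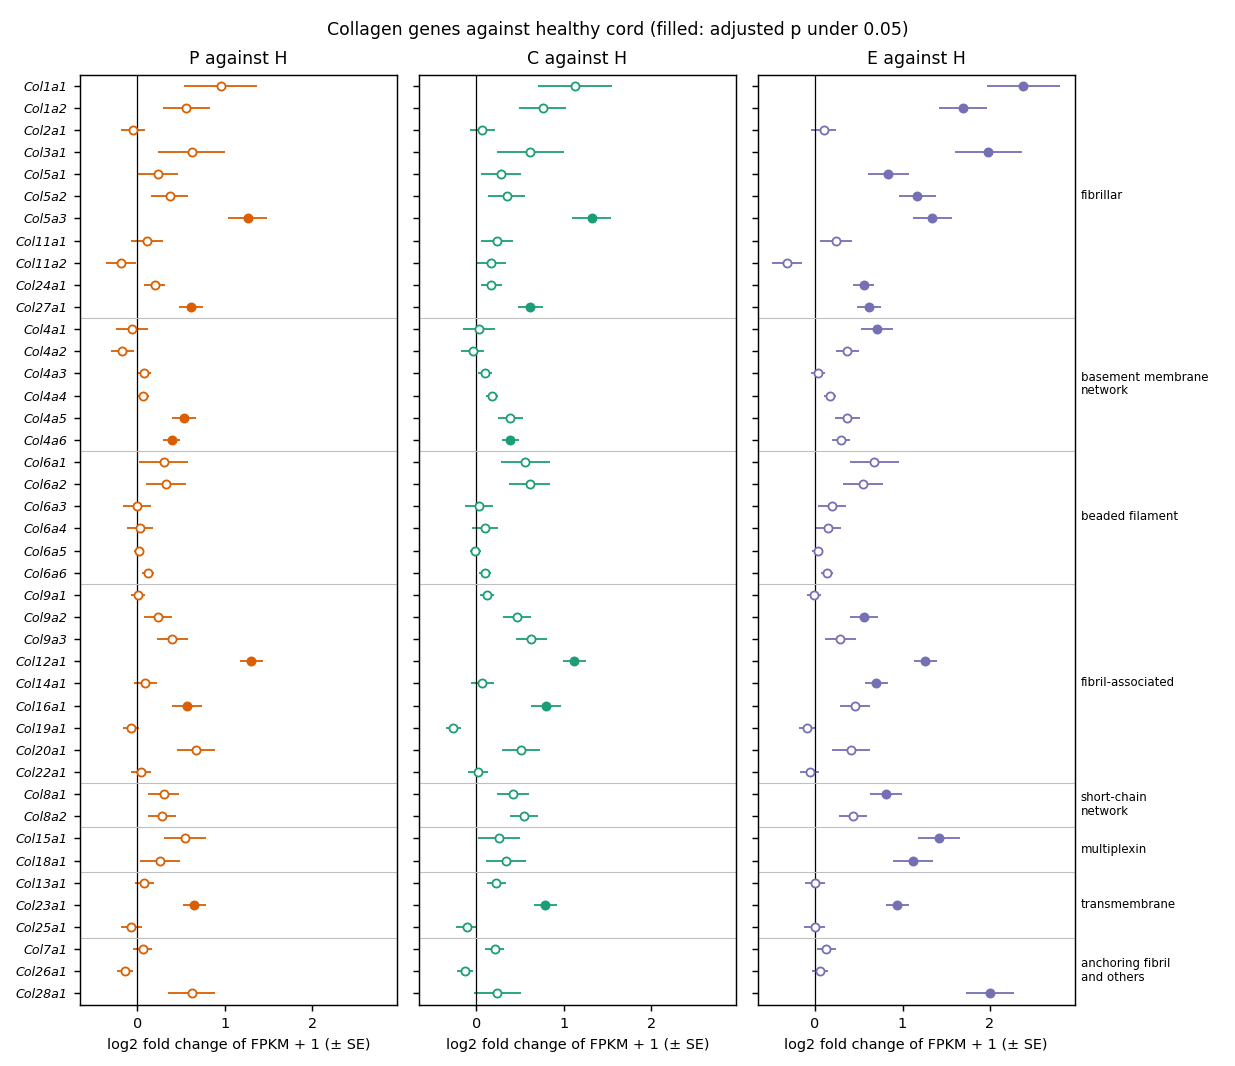
Log2 fold changes against H of the 42 tested collagen genes in P, C and E, on the log2(FPKM + 1) scale. In E they run from -0.32 to 2.38, and the 17 genes that passed lie on the positive side.

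Col12a1, Col5a3, Col23a1 and Col27a1 rose in all 3 ALS groups. Col12a1 encodes a fibril-associated collagen made where tissue bears load or is repaired. Its level was 0.97, 0.70 and 0.67 FPKM in H, 4.02, 3.51 and 2.72 in P, 2.40, 3.48 and 2.79 in C, and 3.16, 3.23 and 3.36 in E. Each ALS mouse lay above each healthy mouse. The change was 1.30 ± 0.13 in P (limma adjusted p = 0.000284), 1.12 ± 0.13 in C (0.000941) and 1.26 ± 0.13 in E (0.000389).

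Col5a3, the third type V chain, had the highest mean FPKM of the fibrillar chains over all libraries, though Col1a2 and Col11a1 had more reads. Its level was 5.89, 4.14 and 3.74 FPKM in H, 13.8, 13.6 and 9.76 in P, 12.2, 15.3 and 11.1 in C, and 14.5, 8.98 and 16.8 in E. All 9 ALS mice lay above the healthy ones. The change was 1.26 ± 0.22 in P (limma adjusted p = 0.00424), 1.32 ± 0.22 in C (0.00473) and 1.34 ± 0.22 in E (0.00285).

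Col23a1, a transmembrane collagen, was at 4.40, 4.08 and 5.13 FPKM in H, 8.67, 7.85 and 6.62 in P, 8.42, 9.92 and 7.43 in C, and 8.45, 9.26 and 11.3 in E. The ALS mice did not overlap the healthy ones. The change was 0.65 ± 0.13, 0.79 ± 0.13 and 0.94 ± 0.13 in P, C and E (limma adjusted p = 0.00929, 0.00512 and 0.00144).

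Col27a1, a fibrillar chain of cartilage and developing tissue, was at 1.36, 1.18 and 1.84 FPKM in H, 3.18, 3.01 and 2.09 in P, 2.64, 2.79 and 2.86 in C, and 3.07, 2.33 and 2.91 in E. The ALS mice lay above the healthy ones without overlap. The group means were 1.46 ± 0.344 FPKM in H, 2.76 ± 0.588 in P, 2.77 ± 0.111 in C and 2.77 ± 0.386 in E, a change of 0.61 ± 0.14, 0.62 ± 0.14 and 0.62 ± 0.14 (limma adjusted p = 0.0144, 0.0183 and 0.0134). The Col27a1 call was lost in P without H2, P66 or P67, in C without H1, H2, C84 or C85, and in E without H2 or E90. Its P call was also lost with only P and H in the fit.

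Col16a1, Col4a5 and Col4a6 passed in P or C. Col16a1, a fibril-associated chain and the most abundant of its class, was at 11.4, 9.25 and 10.3 FPKM in H, 17.7, 17.2 and 12.9 in P, 17.2, 20.4 and 18.4 in C, and 17.6, 10.6 and 16.4 in E. E77 lay within the healthy range. The change was 0.57 ± 0.17 in P (limma adjusted p = 0.0432), 0.80 ± 0.17 in C (0.0162) and 0.46 ± 0.17 in E (0.0956), and E passed without E77 (0.0109). The P call was lost without any 1 of H1, H2, H4, P66 and P67, and the C call without H2, C84 or C85. No filter and median-ratio scaling each ended the P call of Col16a1 too. Col4a5 and Col4a6 lie head to head on chromosome X and encode chains of a type IV network. Col4a5 rose in P (0.53 ± 0.14, limma adjusted p = 0.0303). Col4a6 rose in P and C (0.39 ± 0.10 in each, limma adjusted p = 0.0244 and 0.0327). Its level was 0.16 to 0.18 FPKM in H, 0.34 to 0.81 in P, 0.52 to 0.56 in C and 0.37 to 0.58 in E. Each ALS mouse lay above each healthy mouse for Col4a6, and E passed with pseudocount 0.1 and by voom. In P, leaving out H2, P66 or P67 ended both calls, that of Col4a5 also without H4 and that of Col4a6 without H1, and the C call of Col4a6 was lost without any 1 of the 6 libraries. No filter ended both P calls and the C call. A fit of only P and H ended both P calls, and median-ratio scaling ended that of Col4a5.

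A further 13 collagen genes passed in E against H and in neither P nor C. They were the type I chains Col1a1 and Col1a2, Col3a1, Col5a1, Col5a2, Col24a1, Col4a1, Col8a1, Col9a2, Col14a1, Col15a1, Col18a1 and Col28a1. Passing in E and missing the threshold in P or C does not show a difference between those groups, and the direct comparisons are given further on.

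Col1a1 and Col1a2, the chains of type I collagen, the main fibre of connective tissue, had similar mean FPKM in E (13.7 ± 7.24 and 13.3 ± 4.92). Their union exon lengths were 6563 and 12426 bases. Col1a1 was at 3.13, 1.21 and 0.92 FPKM in H, 5.18, 5.36 and 2.22 in P, 3.06, 7.11 and 4.61 in C, and 12.97, 6.91 and 21.3 in E. E lay above H without overlap, while P74 and C79 lay below H1. The change was 2.38 ± 0.42 in E (limma adjusted p = 0.00523), 0.95 ± 0.42 in P (0.147) and 1.13 ± 0.42 in C (0.122).

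Col1a2 was at 4.28, 2.95 and 2.72 FPKM in H, 6.21, 6.27 and 3.78 in P, 4.53, 8.64 and 6.05 in C, and 12.4, 8.88 and 18.6 in E. The E libraries exceeded all others. The change in E was 1.69 ± 0.27 (limma adjusted p = 0.00265). Col3a1, the type III chain found with type I in distensible tissues, was at 2.01, 0.40 and 0.28 FPKM in H, 2.46, 1.97 and 0.89 in P, 0.87, 2.44 and 2.04 in C, and 5.76, 3.63 and 9.51 in E, a change of 1.98 ± 0.38 in E (limma adjusted p = 0.00715). H1 was the highest healthy library for all 3 genes.

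Among the type V chains, which set fibre diameter, Col5a2 was at 1.52, 1.58 and 3.26 FPKM in H, 3.26, 3.08 and 2.48 in P, 2.68, 2.93 and 2.96 in C, and 5.91, 4.27 and 7.70 in E (1.17 ± 0.21 in E, limma adjusted p = 0.00456). H4 was as high as the highest P library. Col5a1 rose from 1.84 ± 0.616 to 4.19 ± 1.64 FPKM in E (0.84 ± 0.23, limma adjusted p = 0.035). Col24a1, a fibrillar chain of developing bone and cornea, was at 1.76, 1.68 and 2.03 FPKM in H, 1.92, 2.57 and 2.29 in P, 2.32, 2.01 and 2.20 in C, and 2.56, 3.65 and 3.34 in E, with E above H without overlap. It rose from 1.83 ± 0.185 to 3.18 ± 0.564 FPKM in E (0.56 ± 0.12, limma adjusted p = 0.0105). Col11a1 and Col11a2, which were among the more abundant fibrillar chains in H (8.48 ± 3.03 and 9.62 ± 1.61 FPKM), passed in no comparison, though Col11a1 passed in C and in E without H4. The Col5a1 call was lost without H2, H4, E75 or E90. It was also lost with no filter, with median-ratio scaling and with only E and H in the fit.

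Col15a1 and Col18a1, the multiplexins, whose C-terminal fragments include endostatin in the case of Col18a1, both rose in E. Col15a1 was at 2.09, 1.34 and 1.38 FPKM in H, 2.49, 3.63 and 2.29 in P, 1.99, 2.17 and 2.14 in C, and 4.92, 4.09 and 10.01 in E (1.42 ± 0.24 in E, limma adjusted p = 0.00366). Col18a1 was at 1.33, 1.55 and 2.68 FPKM in H, 2.36, 2.77 and 1.97 in P, 1.97, 3.26 and 2.52 in C, and 6.53, 3.31 and 5.96 in E (1.12 ± 0.23 in E, limma adjusted p = 0.00841). E exceeded H without overlap for both.

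Col28a1, a collagen of peripheral nerve that surrounds Schwann cells, was highest in E. It was at 0.22, 0.14 and 0.09 FPKM in H, 0.90, 1.15 and 0.35 in P, 0.19, 0.32 and 0.60 in C, and 2.78, 2.35 and 6.71 in E. Behind these values were 18, 13 and 8 reads in H, 76, 98 and 29 in P, and 231, 207 and 552 in E. P also lay above H without overlap, and Col28a1 passed in P against H with pseudocount 0.1. The change in E was 2.00 ± 0.27 (limma adjusted p = 0.00123). Col14a1, a fibril-associated chain, was at 0.50, 0.15 and 0.27 FPKM in H, 0.33, 0.35 and 0.48 in P, 0.25, 0.47 and 0.39 in C, and 0.89, 0.92 and 1.61 in E (0.70 ± 0.13 in E, limma adjusted p = 0.00653). For both genes every E library exceeded every other library. Col8a1, a short chain of vessel walls and cornea, was at 0.47, 0.49 and 0.34 FPKM in H, 1.02, 0.76 and 0.55 in P, 0.67, 1.13 and 0.99 in C, and 1.98, 0.81 and 1.92 in E. All ALS mice lay above the healthy ones. It rose from 0.433 ± 0.0813 to 1.57 ± 0.661 FPKM in E (0.81 ± 0.18, limma adjusted p = 0.0139), a call lost without E75 or E90. Col9a2 rose from 2.88 ± 0.554 to 4.79 ± 1.44 FPKM (0.56 ± 0.16, limma adjusted p = 0.0399), lost without H1, H2, E75 or E90. With no filter, with median-ratio scaling and with only E and H in the fit the Col9a2 call was lost too.

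**Figure D3:**
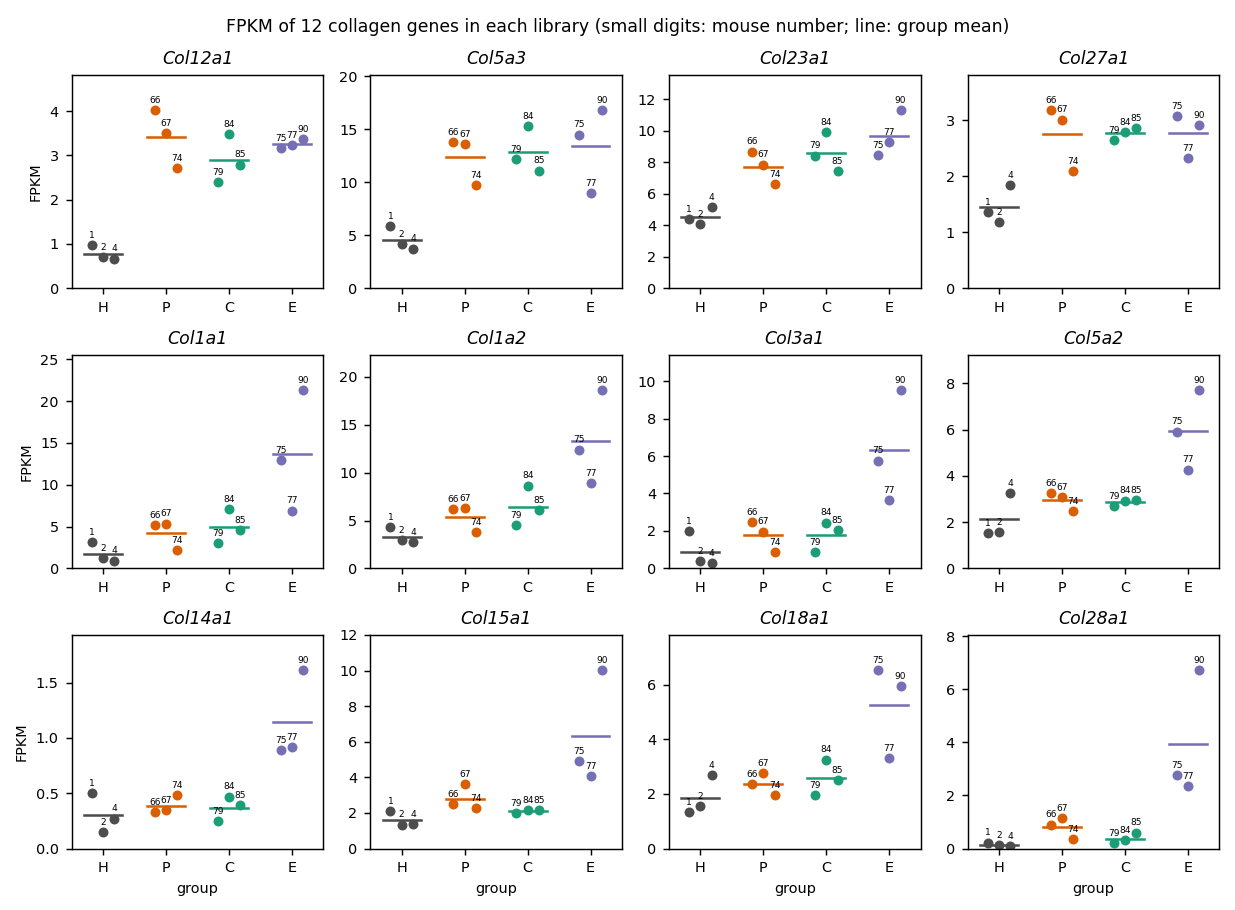
FPKM of collagen genes in each of the 12 libraries, one panel per gene. E90 is the highest library for 13 of the 42 tested collagen genes, among them Col1a1 (21.3 FPKM), Col3a1 (9.51 FPKM) and Col28a1 (6.71 FPKM).

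Of the type IV chains, Col4a1 and Col4a2 form the common network of vessel basement membranes and share a promoter region, their exons overlapping by 22 bases. Col4a1 was at 7.88, 4.87 and 6.10 FPKM in H, 6.23, 6.07 and 5.44 in P, 5.95, 7.39 and 5.75 in C, and 9.85, 8.61 and 14.6 in E (0.71 ± 0.18 in E, limma adjusted p = 0.0248), a call lost without H2, H4 or E90. Col4a2 was at 13.1, 9.54 and 12.2 FPKM in H, 8.72, 11.5 and 10.4 in P, 11.5, 11.96 and 10.2 in C, and 15.4, 13.4 and 16.9 in E (0.37 ± 0.13, limma adjusted p = 0.0843). Both were highest in E, and Col4a2 did not pass. The Col4a1 call was also lost with no filter, with median-ratio scaling and with only E and H in the fit. Col4a3 and Col4a4, chains of the kidney filter, stayed below 0.4 FPKM in every library and did not pass.

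None of the 6 type VI chains passed in any comparison. Col6a1 was at 5.14, 4.21 and 10.7 FPKM in H, 9.59, 8.88 and 5.71 in P, 7.76, 12.4 and 9.13 in C, and 12.3, 8.83 and 10.7 in E. H4 lay as high as the ALS mice, and without H4 the gene passed in C (limma adjusted p = 0.0305) and E (0.0173). Col6a2 was at 1.30, 0.66 and 1.47 FPKM in H, 2.12, 1.80 and 1.14 in P, 1.61, 3.34 and 1.95 in C, and 2.55, 1.36 and 2.54 in E (limma adjusted p = 0.139 in E). Col6a3 was at 0.54 to 1.02 FPKM in H, 1.08, 0.94 and 0.53 in P, 0.71, 1.08 and 0.84 in C, and 1.14, 0.77 and 1.47 in E (limma adjusted p = 0.436 in E). For both, the healthy and ALS ranges overlapped in P and E. The other type VI chains, Col6a4, Col6a5 and Col6a6, were at 0.03 to 0.69 FPKM. Among the 22 genes that passed in no comparison with H, and chosen after their values were seen, Col20a1 in P (0.67 ± 0.22, limma adjusted p = 0.0602), Col8a2 in C (0.55 ± 0.16, 0.0517) and Col9a3 in C (0.63 ± 0.18, 0.054) came nearest. Some alternatives did call them. Col20a1 passed in P with pseudocount 0.1 and without P74. Col8a2 and Col9a3 passed in C with pseudocount 0.1 and by voom, Col8a2 also without C79 and Col9a3 with only C and H in the fit. Col4a4 passed in E by voom.

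The treatments were compared with saline and with each other. In C against P, 0 of 42 collagen genes passed in limma and 0 in voom, and 0 had an unadjusted p under 0.05, where 1802 of all genes did. The background there was 0.00552% of genes called. The C libraries lay above the P libraries without overlap for 2 of 42 genes and below for 1, where 8.33 and 8.77% of all genes did so. The Col12a1 difference was -0.18 with a 95% interval of -0.47 to 0.11, and that of Col5a3 was 0.06 (-0.42 to 0.53). In E against P, 0 passed in limma and 0 in voom, and 15 had an unadjusted p under 0.05, where 889 of all genes did (background 0% called). The E libraries lay above the P libraries without overlap for 13 of 42 genes and below for 0, where 4.81 and 4.2% of all genes did so. The largest difference was that of Col1a1, 1.43 (0.50 to 2.36, limma adjusted p = 0.534), and the smallest adjusted p was that of Col28a1, 1.38 (0.79 to 1.97, limma adjusted p = 0.219). For Col12a1 and Col5a3 the differences were -0.04 (-0.33 to 0.24) and 0.08 (-0.39 to 0.56). In C against E, Col28a1 passed (0.372 ± 0.21 FPKM in C and 3.95 ± 2.4 in E, log2 difference -1.76 ± 0.27, limma adjusted p = 0.0285, background 0.171% called, 0.121% lower and 0.0497% higher). The C libraries lay below the E libraries without overlap for 12 of 42 genes and above for 3, where 10.3 and 6.61% of all genes did so. By voom 0 collagen genes passed, and 13 had an unadjusted p under 0.05 in limma, where 1991 of all genes did. The Col28a1 call was lost in voom, with only both groups in the fit, with no filter, and without C79, C84, C85 or E75. Col15a1 (-1.16, limma adjusted p = 0.0899) and Col14a1 (-0.63, 0.1) came next.

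Ratios between the FPKM of chains of a type were compared by exact permutation of 3 against 3 libraries, two-sided. That test cannot give a p below 0.1. These are ratios of RNA in bulk tissue over union exon lengths, and the make-up of the collagen proteins was not measured. Of 48 such comparisons the smallest adjusted p was 0.4. The FPKM ratio of Col5a3 to Col5a1 was 2.54 ± 0.284 in H, 5.35 ± 0.223 in P, 5.38 ± 0.838 in C and 3.29 ± 0.462 in E (exact p against H = 0.1, 0.1 and 0.2). Col1a1 to Col1a2 was 0.493 ± 0.21 in H and 0.992 ± 0.191 in E (exact p = 0.1). Col9a3 to Col9a2 was 1.82 ± 0.341 in H and 1.39 ± 0.0254 in E (exact p = 0.1). None of these passed.

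Some of the genes that make and handle collagen passed in the ALS groups, nearly all of them higher, beside the 12.2, 7.25 and 11.1% of all genes that rose in P, C and E. The lists themselves were not tested. Of 29 tested genes of synthesis, folding and processing, 12 rose and 1 fell in P (Pcolce2, -0.29 ± 0.09, limma adjusted p = 0.044), 7 rose in C and 13 rose in E, with medians of 0.30, 0.30 and 0.41. P4ha3, a prolyl hydroxylase subunit, rose in P from 4.02 to 14.3 FPKM (1.52 ± 0.27, limma adjusted p = 0.00451), and Plod3, a lysyl hydroxylase, and Bmp1, which trims procollagen, rose by 0.56 ± 0.10 and 0.81 ± 0.15 (limma adjusted p = 0.00596 and 0.00664). Serpinh1, the collagen chaperone HSP47, chosen after its values were seen, rose in E from 8.78 to 29.1 FPKM (1.60 ± 0.27, limma adjusted p = 0.00342). It also rose to 17.1 FPKM in P (0.92 ± 0.27, limma adjusted p = 0.0382) and 19.9 FPKM in C (1.14 ± 0.27, 0.0245). E against P did not pass for Serpinh1 (limma adjusted p = 0.891). Of 7 crosslinking genes, 4 rose in P (Pxdn, Loxl2, Lox and Loxl3), 2 in C (Loxl2 and Tgm2) and 3 in E (Lox, Tgm2 and Pxdn). Lox, which oxidises collagen lysines, rose from 0.255 to 2.27 FPKM in P (1.32 ± 0.34, limma adjusted p = 0.0244) and to 4.79 in E (2.12 ± 0.34, 0.00263). The P call was lost without H2, H4, P66 or P67. Of 12 tested receptors, 6, 5 and 8 rose in P, C and E (in C Lair1, Ddr1, Mrc2, Itga10 and Antxr1), with Lair1, an inhibitory collagen receptor of leukocytes, at 1.15 ± 0.14 in P (limma adjusted p = 0.000724). Of 22 tested genes of the TGF-beta pathway, which drives collagen transcription in fibroblasts, 8, 5 and 11 rose, those in C being Tgfbr1, Tgfbr2, Tgfb1, Tgfb2 and Acvrl1. Tgfbr1 rose in P by 1.54 ± 0.18 (limma adjusted p = 0.000569), Tgfbr2 by 1.35 ± 0.19 (0.00171) and Tgfb1 by 1.10 ± 0.20 (0.00551).

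Markers of other cell types moved with these groups, and their part in the collagen results was not tested. Markers of meningeal and perivascular fibroblasts, none of them collagens, summed to 27.1 to 51.8 FPKM in H, 72.9 to 194 in P, 98.1 to 208 in C and 168 to 332 in E, and 3 (Thbs2, Fmod and Ogn), 11 and 12 of the 18 tested rose in P, C and E. No marker was at 0 in any library. Markers of Schwann cells and nerve root summed to 56.9 to 135 FPKM in H, 183 to 258 in P, 92.4 to 208 in C and 406 to 906 in E. Of the 9 tested, 4 rose in P (Egr2, Drp2, Fxyd3 and Pmp22), 1 in C (Egr2) and 9 in E, and Pmp2, not tested, was listed at 0 in every library but E90. Endothelial markers summed to 84.5 to 87.9 FPKM in H, 77.6 to 85.4 in P, 92.6 to 119 in C and 100 to 103 in E, and 0 of 11 passed. Of 8 microglial markers 7, 6 and 6 rose in P, C and E, and of 8 astrocyte markers 6, 3 (Gfap, Aqp4 and Gja1) and 4 (those and Slc1a3). Of 10 tested markers of pericytes and smooth muscle 1 rose in P (Acta2), 3 in C (Vtn, Acta2 and Kcnj8) and 2 in E (Pdgfrb and Vtn). Caudal Hox genes, which mark the level of the cord, summed to 3.41 to 39.9 FPKM in H, 23.7 to 81.4 in P, 10 to 44 in C and 62 to 94.1 in E. P and C overlapped H, P67 (58.9 FPKM) and P74 (81.4 FPKM) lay near or within the E range, and E lay above H and above C without overlap. Of the 8 genes, 2 (Hoxc12 and Hoxc13) rose in E against H, and Hoxc12 was lower in C than in E (-2.15 ± 0.32, limma adjusted p = 0.0277). In E against H and in C against E, the level of the cord sampled and the group cannot be told apart.

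The summed levels of neuronal and of red blood cell markers were lower in every ALS library than in any healthy one. Not every single marker was. Syt1 was at 14.4 FPKM in H1 and 18.8 to 30.3 FPKM in the ALS libraries. Hba-a2 was at 4.91 FPKM in H2 and 6.39 FPKM in P67. Neuronal markers summed to 1151 to 1529 FPKM in H, 623 to 1006 in P, 892 to 964 in C and 854 to 887 in E, and 6, 2 (Stmn2 and Nefm) and 3 (those and Snap25) of 7 fell in P, C and E. Red blood cell markers summed to 402 to 2578 FPKM in H, 128 to 307 in P, 206 to 389 in C and 108 to 267 in E, and 3 (Hba-a1, Hbb-bt and Hbb-bs), 1 (Alas2) and 5 of 7 fell. Oligodendrocyte markers summed to 4494 to 5847 FPKM in H, 4064 to 4310 in P, 4489 to 4887 in C and 2943 to 3875 in E. Of these 7 markers, 3 (Mog, Mbp and Mobp) fell in E, Mog fell and Opalin rose in P, and Opalin rose in C.

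**Figure D4:**
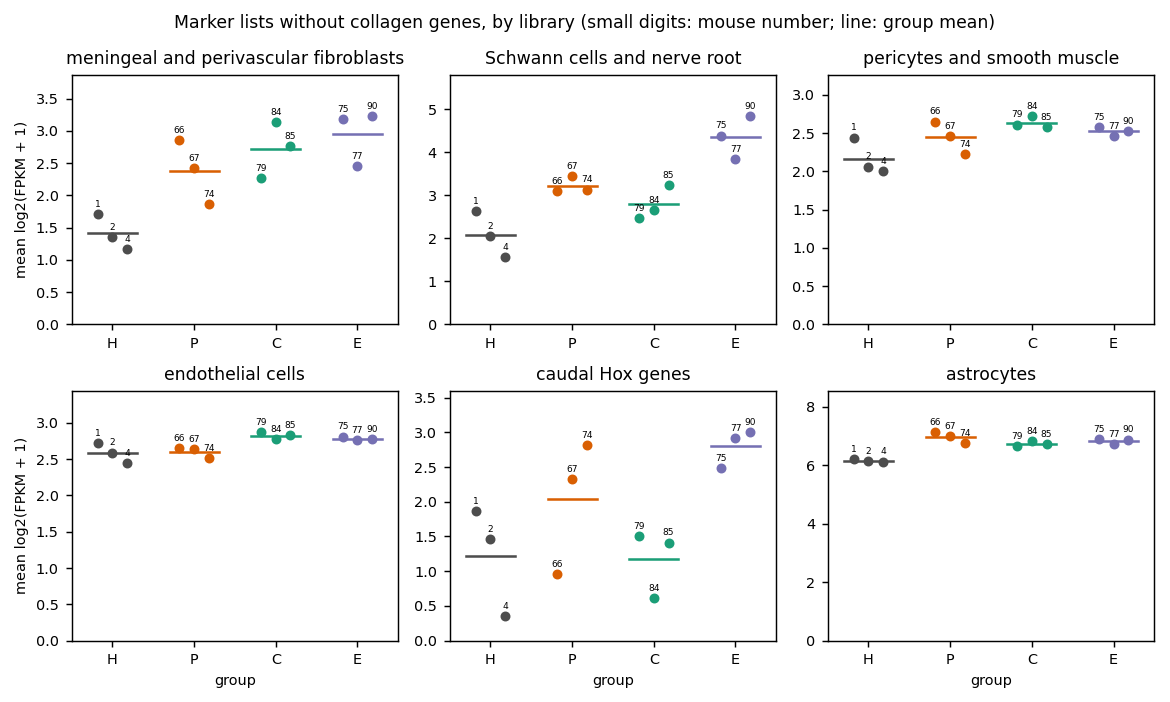
Mean log2(FPKM + 1) of marker lists in each of the 12 libraries, by group. The Schwann cell and nerve root score lies at 1.56 to 2.63 in H and 3.84 to 4.84 in E, and the caudal Hox score at 0.35 to 1.86 in H and 2.49 to 3.00 in E.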

How the data were processed

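RNA of lumbar spinal cord from 12 mice was sequenced, 3 mice in each of 4 groups, each number marking a separate mouse per the labels. Per the submitters' processing notes the authors used cutadapt, HISAT2 and featureCounts on GRCm38, and the sources used here name neither versions nor a strand setting. Reads of overlapping or antisense genes therefore cannot be told apart (the exons of 13 collagen genes overlap another gene, those of 10 a gene on the opposite strand). The authors deposited 1 table per group without a unit in its header, and its values were taken as FPKM on this ground: times the union exon length in GENCODE M21 (33829 of 33906 identifiers matched), 95.2 to 95.6% of low values lay within 0.02 of whole reads, and 1 read in 1 kb was worth 0.0542 to 0.0643 FPKM. Recovered reads, 16.76 to 19.81 M per library, served for the filter (a CPM worth 10 reads of a median library in 3 or more libraries, and 15 reads in all) and for the voom alternative. The filter left 18118 genes.

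Tests were run in R 4.3.3 with limma 3.58.1 on log2(FPKM + 1), with 1 mean per group over all 12 libraries (8 residual degrees of freedom), trended robust moderation, two-sided, Benjamini-Hochberg adjustment per comparison. The median standard error was 0.12. Counting error was not modelled apart from the spread between mice. Named genes were the members that passed (the 14 of smallest p), fixed chains of types I, III, IV and VI, the most abundant chain of each class, and up to 3 passing genes per other list. Members and lists were chosen with earlier results of these data known. Alternatives were another pseudocount (0.1), no filter, median-ratio scaling, voom, a fit of 2 groups, and leaving out each library.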

Additional observations from a re-analysis of the deposited data

Results flagged for a closer look

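Col28a1 was lower in group C than in group E by 1.76 on the log2(FPKM + 1) scale (log2 fold change -1.76 ± 0.27), the collagen gene for which the 2 treated groups differed by the test of the difference itself (limma adjusted p = 0.0285). Its level was 0.19, 0.32 and 0.60 FPKM in C and 2.78, 2.35 and 6.71 in E. The call was lost in 7 of 11 alternatives, over which the adjusted p ran from 0.021 to 0.165. Of the Schwann cell and nerve root markers, Drp2 and Pmp22 also passed as lower in C than in E, as did the caudal Hox gene Hoxc12 (-2.15 ± 0.32, limma adjusted p = 0.0277). The summed level of the caudal Hox genes was 10 to 44 FPKM in C and 62 to 94.1 in E, without overlap. The part of these markers in the result was not tested.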

How the results depend on the processing

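No paired analysis was possible because the groups share no mouse number. Of 1430 values recomputed, 1259 kept direction and side of the threshold, 157 no longer passed, 14 newly passed and 0 reversed. Collagen genes called in P against H fell to 4 with no filter and to 4 with only the 2 groups in the fit, and ran from 3 to 8 when each library was left out (4 to 9 under the other alternatives). With a library left out they ran from 3 to 7 in C against H (5 to 8 under the others), 12 to 18 in E against H (14 to 19), and 0 to 2 in C against E, where no filter, voom and the 2-group fit each gave 0. In C against P and E against P 0 passed under every alternative.

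Over all genes, P against H gave 2807, 1444 with no filter and 1471 with the 2-group fit (933 to 3535 with a library left out). C against H gave 1505, 736 with no filter (567 to 1915). E against H gave 2393, 1469 with no filter (1159 to 2230). C against P gave 1, then 0 with pseudocount 0.1, 5 with no filter, 2 with median-ratio scaling and 0 with voom (0 to 2). E against P gave 0, then 3 with no filter (0 to 2). C against E gave 31, then 17 with pseudocount 0.1, 4 with no filter and 4 with the 2-group fit (0 to 56). The causes were not tested. With 3 mice a group, small changes of low genes were not detectable.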
